A study of Saccharomyces cerevisiae with 8 samples.

Results

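The comparison described here is the last step of a drug gradient in the budding yeast Saccharomyces cerevisiae, in which cells in LiCl only (point 7) were set against cells in the mixture with the most LiCl and the least cycloheximide (point 6). It uses 2 of the 8 libraries of the series, chosen by their condition labels, and the other 6 serve as the background against which the LiCl only library is read. All 8 cultures were the laboratory strain BY4741 in the rich medium YPD, grown for about 17 h to an OD600 of about 0.5. Points 1 to 7 lie on an isobole, a line of drug combinations chosen so that growth was inhibited by 50%: point 7 held LiCl without cycloheximide, points 2 to 6 held both drugs in changing ratios, and point 1 held cycloheximide without LiCl. The remaining culture held no drug and was inoculated more thinly, so that it reached a similar density. Total RNA was depleted of ribosomal RNA and sequenced as 50-base single-end reads, which were counted over coding sequences (CDS) and over introns.

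Cycloheximide blocks elongation by the ribosome. Lithium enters the cell as a toxic cation, adds to the osmotic load and inhibits the phosphatase Met22 (Hal2), whose substrate in turn inhibits RNA-processing exonucleases. Yeast meets cation stress in part through calcineurin, a calcium-activated phosphatase that sends the transcription factor Crz1 to the nucleus. A separate pathway, in which the factor Pho4 binds CACGTG sites, turns on phosphate transporters and secreted acid phosphatases when phosphate is short. Ribosomal protein (RP) genes carry a large share of the introns of this genome and supply most of the pre-mRNA that the spliceosome handles in growing cells.

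Each condition was 1 library, so a difference between LiCl only and point 6 has no replicate check. Standard errors (SE) and 95% intervals given below cover counting error only. They measure neither the spread between cultures nor the effect of library preparation. The step between points 6 and 7 changes both drugs together, and loss of cycloheximide and gain of LiCl cannot be told apart in it. The LiCl only library was the deepest, with 28042336 CDS counts against 14588508 at point 6, and the other 6 libraries held 13693401 to 23522386. The markers deleted in BY4741 behaved as the strain label states, with at most 1 count of LEU2, 0 of URA3 and 2 of MET17 in any library. The fourth, HIS3, is deleted only in part and had up to 1266 counts. CDS levels are given as CPM, counts per 1000000 after TMM scaling, and a step is the log2 ratio of LiCl only over point 6. In RNA from whole cultures, fewer cells with a transcript and less of it per cell cannot be told apart.

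Of 6511 genes with at least 20 counts in at least 1 library, 88 (1.35%) were at least 2-fold higher in LiCl only than at point 6 with a counting interval that left out no change, and 45 (0.691%) were at least 2-fold lower. "Rose" and "fell" below refer to these 133 genes for CDS levels, and counts within a list stand beside the 1.35% and 0.691% of all genes. The median step over all genes was -0.000925. LiCl only was the deepest library, and 71 genes reached 20 counts there and in no other library. Of these 71, 11 were among the 88 and 0 among the 45, so they entered through the library where they are high. Without them, a choice made after seeing the data, 77 rose and 45 fell. Of the 88 that rose, 60 were also above all 7 other libraries, 16 were above points 1 to 6 but below the no drug culture, and 12 were not above points 1 to 6. Of the 45 that fell, 34 were below all 7 other libraries, 9 were below points 1 to 6 but above no drug, and 2 were not below points 1 to 6. From point 5 to 6, the log2 change was positive for 22 of the 88, with a median of -0.32 over the 88. It was negative for 22 of the 45, with a median of 0.003. A low value at point 6 enlarges a rise at the last step, and its part in the 88 was not tested. The limit has no natural place: the gene nearest to it among those that rose had a step of 1.00162 and the nearest left out had 0.997399, against -1.00248 and -0.997252 among those that fell. The genes that rose were mostly weakly expressed: when all genes were split by summed counts into 4 equal groups, 56 of the 88 lay in the group with the fewest counts, where the median step was 0.17, and 28 of the 45 that fell lay in the group with the most, where it was -0.12. Genes within 30 kb of a chromosome end gave 22 of the 88 and 6 of the 45 from 432 genes, with a median step of 0.19.

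**Figure D1:**
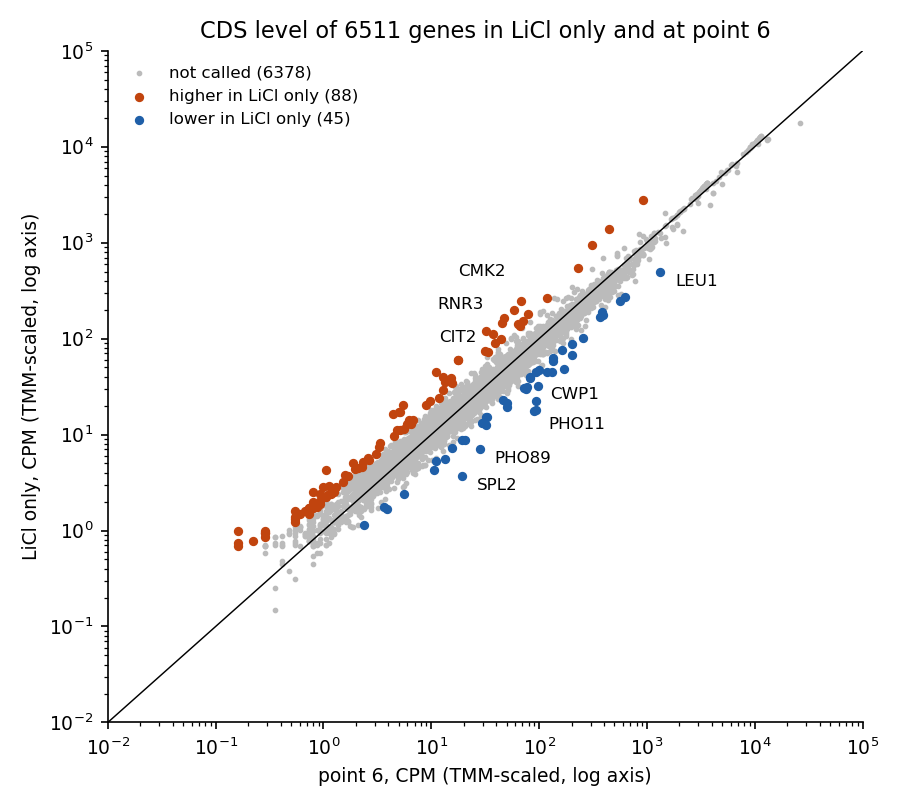
CDS level of each of the 6511 genes in LiCl only (vertical axis, CPM, log scale) against point 6 (horizontal axis, CPM, log scale), 1 point per gene, with the 88 genes that rose in red, the 45 that fell in blue and the rest in grey. The blue points lie mostly at higher levels than the red ones, with the phosphate genes SPL2, PHO11 and PHO12 farthest below the diagonal.

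The same counting rule gave fewer calls at most of the other steps along the isobole. From point to point it called 47 genes higher and 42 lower from 1 to 2, 24 and 27 from 2 to 3, 17 and 4 from 3 to 4, 37 and 112 from 4 to 5, and 23 and 24 from 5 to 6. The step to LiCl only therefore had the highest count of higher calls of the 6 steps, while the count of lower calls was higher from point 4 to 5. Deeper libraries give narrower intervals, and the fold limit alone, without the interval, gave 99 and 46 genes at the last step. The spacing of the conditions in concentration was not used, so the counts cannot be read as comparing equal changes of dose.

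**Figure D2:**
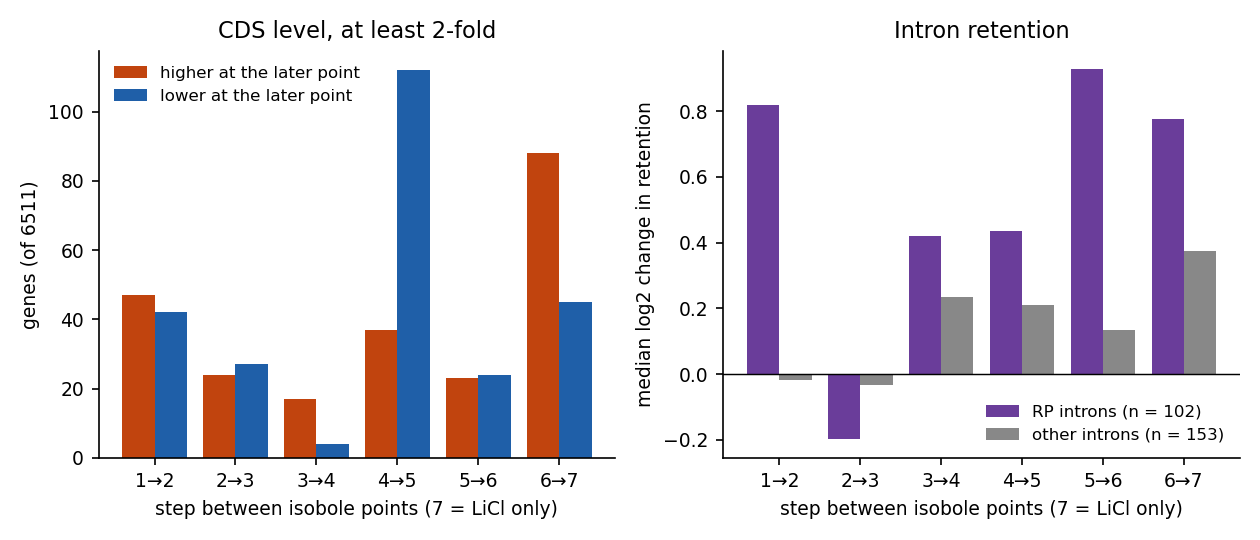
Left, genes at least 2-fold higher (red bars) or lower (blue bars) at the later point of each step between neighbouring points of the isobole. Right, the median log2 change of intron retention at each step for RP introns and other introns: the last step has 88 higher and 45 lower genes and medians of 0.78 and 0.37.

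A level seen in LiCl only and nowhere else was looked for in 2 ways. In the first, a gene had to lie at least 2-fold outside the range of all 7 other libraries. The LiCl only library was above all the others for 1530 genes (23.5%) and below all for 1505 (23.1%), but by at least 2-fold for 11 (0.169%) and 19 (0.292%). By the same measure point 6 had 0 genes above and 0 below, points 1 to 5 had at most 1 above and at most 5 below each, and the no drug culture had 45 above and 224 below. The 11 genes were RNR3, CIT2, PRM7, PES4, MIP6, SPO13, YER097W, YER188W, YHL012W, YOL085C and YPR145C-A. PES4 reached 20 counts in no other library, so it entered through LiCl only, and 10 were left without such genes. The count of 11 moved to 19 with total-count scaling in place of TMM and to 7 where at least 20 counts were required in both libraries. The 19 lower genes were the phosphate genes PHO5, PHO11, PHO12, PHO89 and SPL2, the glucose and reserve carbohydrate genes HXT2, HXT6, HXT7, HXK1, GSY1 and GPH1, then HTA1, MET6, COX26, RTC3 and YBR190W, and the reading frames YFR052C-A, YPR160W-A and YPR160C-A, which overlap HXK1 or GPH1 and share their reads.

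In the second, a straight line was fitted through points 1 to 6 and the departure of LiCl only from it was tested with edgeR's quasi-likelihood test, adjusted by the Benjamini-Hochberg method over the 6511 genes. This assumes that the lone LiCl only library varies as the others do. Drug concentrations were not used, so the fit treats the 7 points as equally spaced, which was not checked. An uneven spacing or a curved response also counts as a departure. It called 6 genes higher (0.0922%), CIT2, RCR1, YOR385W, CRZ1, ADI1 and DLD3, and 5 lower (0.0768%), SPL2, LEU1, HTA1, CWP1 and PHO11. At an unadjusted p under 0.05 the counts were 336 and 328. The calls were sensitive to the form of the line: with a quadratic curve in place of the straight line there were 0 in each direction, and leaving out points 1, 2, 3, 4, 5 and 6 in turn gave 4, 7, 0, 4, 1 and 2 higher and 4, 3, 0, 3, 1 and 3 lower.

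Sequences upstream of some genes that rose or fell are shown first, because the phosphate genes that fell carry 1 kind of site and 3 of the genes that rose carry another. Of the genes shown, SPL2 and PHO11 passed both measures above, and CMK2, PHO84 and VTC3 passed neither. CIT2 and HTA1 also passed both and are not shown. Each run is 30 bases of the strand that codes for the gene, 5′ to 3′, from the RefSeq genome of build R64. In the first set the capitals mark CACGTG, the core bound by Pho4 and by Cbf1, in the 7 genes of the phosphate list that fell.
SPL2 (chrVIII:375230-375259, minus strand): aaatgatgtacgCACGTGggcgaaagttca
PHO12 (chrVIII:551804-551833, plus strand): tcttggcgttcaCACGTGggtttaaaaagg
PHO11 (chrI:225165-225194, plus strand): tcttggcgttcaCACGTGggtttaaaaagg
PHO89 (chrII:798828-798857, minus strand): atgacaatgcagCACGTGggagacaaatag
PHO5 (chrII:431187-431216, minus strand): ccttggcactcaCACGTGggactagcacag
PHO84 (chrXIII:26197-26226, minus strand): tgttatttccagCACGTGgggcggaaatta
VTC3 (chrXVI:517346-517375, minus strand): tgtgcgagggccCACGTGgcttaatacaac

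The motifs start 147 to 414 bases upstream of the coding sequence, and the PHO11 and PHO12 windows are identical. Each window was chosen to have GG beside the core, on the opposite strand in VTC3, and is the nearest such site at least 100 bases upstream. SPL2 holds 4 CACGTG sites within 500 bases upstream and PHO84 and VTC3 hold 2 each, and of the 12 sites of the 7 genes 8 have this flank. Within 500 bases upstream, CACGTG (its own reverse complement, so both strands are read at once) was present in 388 of the 6511 genes (5.96%), in 11 of the 45 that fell (24.4%) and in 3 of the 88 that rose (3.41%). The 11 that fell include the 7 phosphate genes printed above, so this share largely restates the phosphate list. The flanked form CACGTGGG, read on both strands, was noticed after the values were seen. It was present in 31 genes (0.476%), of which 8 fell: the 7 above and ARO9, an aromatic aminotransferase. The median step of those 31 genes was -0.18, and 19 of them were negative.

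The second set shows, with capitals, the core GAGGCT, or its reverse complement AGCCTC, of sites bound by Crz1, in 3 genes that rose and that hold 2 cores each.
CMK2 (chrXV:296348-296377, minus strand): ttctatgttgatGAGGCTtttcagaacgtg
CMK2 (chrXV:296280-296309, minus strand): aagagaataattGAGGCTtatcttagaacc
RCR1 (chrII:245691-245720, plus strand): ctcctctctcgaAGCCTCtcttttatgtct
RCR1 (chrII:245721-245750, plus strand): tttttcgatgatGAGGCTtacttttttttt
YOR385W (chrXV:1064834-1064863, plus strand): gcttataaaagcGAGGCTtttcatagaaat
YOR385W (chrXV:1064893-1064922, plus strand): tgttcattcgtaAGCCTCttaatttttcaa

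GAGGCT on either strand was present in 786 genes (12.1%), in 18 of the 88 that rose (20.5%) and in 4 of the 45 that fell (8.89%). At least 2 copies were present in 53 genes (0.814%), 3 of them among the 88 (3.41%). The core was not found in these 500 bases of RNR3, CIT2, CRZ1, ADI1 or DLD3. Another 11 motifs were searched on both strands, and their shares are given for all genes, those that rose and those that fell, in that order. The stress element AGGGG was in 33.8%, 38.6% and 48.9%, the Ume6 core GGCGGC in 9.35%, 18.2% and 20%, and the Gcn4 site TGACTC in 12.98%, 9.09% and 20%. The Pdr1 site CCGCGG was in 3.12%, 2.27% and 8.89%, the MluI box ACGCGT in 5.25%, 9.09% and 4.44%, and the Rap1 core CACCCA in 14.4%, 18.2% and 17.8%. The Met31 core TGTGGC was in 14.2%, 17.05% and 13.3%, and the heat shock element TTCNNGAA in 21.2%, 18.2% and 15.6%. The RRPE element AAAATTT was in 33.4%, 26.1% and 28.9%, the PAC element GATGAG in 28.0%, 28.4% and 28.9%, and the Rpn4 element GGTGGCAAA in 1.64%, 1.14% and 0%. A match of letters is a description and says nothing about binding.

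Among the genes that rose, RNR3 and CIT2 were the best measured of those high in LiCl only and nowhere else. RNR3 (chrIX:238099-240708), the DNA damage-inducible large subunit of ribonucleotide reductase, had 165 CPM in LiCl only against 47.0 CPM at point 6, a step of 1.81 ± 0.06 (SE). In the other libraries it had 9.79 CPM without drug and 12.1, 30.3, 31.3, 33.2 and 51.9 CPM at points 1 to 5, so it had already climbed through the mixtures before the last step. Its departure from the line through points 1 to 6 was 1.20 on the log2 scale and was not called (edgeR adjusted p = 0.371).

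CIT2 (chrIII:120946-122328), the peroxisomal citrate synthase and a marker of retrograde signalling from mitochondria to the nucleus, was flat along the mixtures. It had 145 CPM in LiCl only against 45.3 CPM at point 6, with 37.5, 41.6, 39.4, 41.8 and 48.0 CPM at points 1 to 5 and 23.8 CPM without drug. The step was 1.68 ± 0.06, while the step before it, from point 5 to 6, was -0.08. Its departure of 1.58 had the smallest p of all genes (edgeR adjusted p = 0.0098). DLD3, a D-2-hydroxyglutarate transhydrogenase that is also a retrograde target, had 179 CPM in LiCl only against 78.9 CPM at point 6, but 184 CPM without drug and 143 CPM in cycloheximide only. Its departure was 1.41 (edgeR adjusted p = 0.034), and its high level in LiCl only was thus a return to the level without drug. The other genes of the respiratory chain and the tricarboxylic acid cycle did not move with CIT2: of 49 listed, CIT2 was the only one that rose and 0 fell, the median step was -0.36, and 44 (89.8%) were below all 7 other libraries, against 23.1% of all genes. ACO1, the mitochondrial aconitase, had 80.5 CPM in LiCl only against 131 CPM at point 6 (step -0.71 ± 0.04), and SDH1, a subunit of succinate dehydrogenase, had 14.4 against 26.3 CPM (-0.87 ± 0.10).

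The other ribonucleotide reductase genes gave smaller steps than RNR3. RNR2, a small subunit, had 686 CPM in LiCl only against 393 CPM at point 6 (0.80 ± 0.02), with 285 CPM without drug. RNR4, the other small subunit, had 536 against 312 CPM (0.78 ± 0.02), also with 285 CPM without drug. RNR1, the main large subunit, had 448 against 413 CPM (0.12 ± 0.02), with 76.5 CPM without drug. All 3 were highest in LiCl only of all 8 libraries, without reaching the 2-fold limit of the last step. Of 23 genes of ribonucleotide reductase and the DNA damage response, RNR3 was the only one that rose and 0 fell, 11 (47.8%) were above all 7 other libraries against 23.5% of all genes, and the median step was 0.19.

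Of the calcineurin pathway, CMK2 and CRZ1 rose at the last step. CMK2, a calmodulin-dependent protein kinase, had 245 CPM in LiCl only against 67.7 CPM at point 6, a step of 1.86 ± 0.05. Its level had been 168, 91.4, 102, 106 and 117 CPM at points 1 to 5, and it was 347 CPM without drug, so LiCl only was the highest point of the isobole and still below the culture without drug. CRZ1 (chrXIV:579580-581616), which encodes the transcription factor itself, had 73.8 CPM in LiCl only against 31.2 CPM at point 6 (1.25 ± 0.07). Points 1 to 5 lay between 28.4 and 35.4 CPM, no drug had 57.1 CPM, and the departure was 1.27 (edgeR adjusted p = 0.034).

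PMC1, the vacuolar calcium pump, had 195 CPM in LiCl only against 108 CPM at point 6 (0.85 ± 0.04) and 316 CPM without drug. Of the 18 genes listed for calcineurin and the calcium pumps, CMK2 and CRZ1 rose and 0 fell, 15 had a positive step, and the median step was 0.24. Of the 18, 5 (27.8%) were above all 7 other libraries, close to the 23.5% of all genes. RCR1, an endoplasmic reticulum membrane protein that acts on chitin deposition in the wall, had 39.6 CPM in LiCl only against 12.9 CPM at point 6, with points 1 to 5 between 14.04 and 23.1 CPM and no drug at 48.8 CPM (step 1.62 ± 0.11, departure 1.82, edgeR adjusted p = 0.027). YOR385W, a gene without an assigned function, had 59.2 against 17.7 CPM, with points 1 to 5 between 21.9 and 38.5 CPM and no drug at 67.3 CPM (step 1.74 ± 0.09, departure 1.90, edgeR adjusted p = 0.033). CMK2, RCR1 and YOR385W, the 3 genes with 2 cores printed above, were highest of the isobole in LiCl only and higher still without drug. That course is not particular to them: 16 of the 88 genes that rose were above points 1 to 6 and below no drug. The 3 were shown because they rose and hold 2 cores, and the other genes with at least 2 cores were not followed.

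Transporters and regulators of monovalent cations did not move as a group. Of 26 listed and measured, HAL5, a kinase that promotes potassium uptake, was the only one that rose, with 152 CPM in LiCl only against 70.2 CPM at point 6 (1.11 ± 0.05) and 129 CPM without drug. The median step was -0.01, and 0 fell. ENA1, the plasma membrane pump that expels sodium and lithium, had 260 CPM in LiCl only against 230 CPM at point 6 (0.17 ± 0.03), with 184 to 307 CPM at points 1 to 5 and 186 CPM without drug. Among 28 glycerol and osmotic stress genes, 0 rose and 3 fell, with a median step of -0.20. Of the 28, 11 (39.3%) were below all 7 other libraries, against 23.1% of all genes. GPD1, which makes the osmolyte glycerol, had 320 against 358 CPM (-0.16 ± 0.02), while its paralog GPD2 had 181 against 103 CPM (0.82 ± 0.04).

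ADI1, an enzyme of the methionine salvage pathway, was highest of all libraries in LiCl only, with 59.9 CPM against 17.5 CPM at point 6, 17.6 to 29.96 CPM at points 1 to 5 and 40.0 CPM without drug (step 1.77 ± 0.09, departure 1.87, edgeR adjusted p = 0.034). HSP30, a stress-induced protein of the plasma membrane, had 198 CPM in LiCl only against 59.0 CPM at point 6 (1.75 ± 0.05), with 41.4 to 111 CPM at points 1 to 5 and 119 CPM without drug. HSP30 was the only one of 27 heat shock chaperone genes that rose, and the median of that list was 0.04. Short or uncharacterised reading frames had some of the steepest steps at low levels. YPR145C-A had 128 counts in LiCl only against 16 at point 6 (2.02 ± 0.38). YER188W had 20.2 against 5.41 CPM (1.90 ± 0.17), YOL014W had 16.3 against 4.45 CPM (1.87 ± 0.18), and YMR007W had 17.3 against 5.03 CPM (1.79 ± 0.17). YOL014W and YMR007W were also expressed without drug, at 14.9 and 10.6 CPM, whereas YPR145C-A and YER188W were at 0.975 and 4.41 CPM there.

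Meiosis and sporulation genes, which are kept off in rich medium, stood at low levels in all libraries and were mostly higher in LiCl only. Of 51 measured out of 56 listed, 5 rose, 0 fell, 47 had a positive step and 32 (62.7%) were above all 7 other libraries, against 23.5% of all genes, and the median step was 0.46. Their summed level was 342 CPM in LiCl only against 263 CPM at point 6 and 254 CPM without drug. SPO13, which holds sister kinetochores together in meiosis I, had 71 counts in LiCl only against 18 at point 6 (2.38 and 1.18 CPM, step 1.01 ± 0.38), with 0.707 to 1.08 CPM at points 1 to 5. SPS22, which acts in the spore wall, had 85 against 20 counts (1.11 ± 0.35). SMA1 had a step of 2.62 ± 0.95 on 29 counts against 2, and it reached 20 counts in LiCl only and in no other library, so that it entered the measured set through the library where it is high. The same holds for 3 of the 51 in all, and without them 4 of 48 rose, with 30 above all 7 other libraries and a median of 0.46. SPS100, another spore wall gene, had 17.1 against 5.09 CPM (1.75 ± 0.17) and was not specific to LiCl only, with 21.1 CPM at point 3. Weakly expressed genes as a whole also had a positive median step (0.17 in the lowest of the 4 count groups), and its part in this list was not tested.

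Among the genes that fell, the phosphate pathway gave 7 of 45. Of 27 genes of phosphate transport and acquisition, 0 rose and 7 fell, the median step was -0.38, and 17 (63.0%) were below all 7 other libraries, against 23.1% of all genes. SPL2 (chrVIII:374654-375100), a protein that limits low-affinity phosphate uptake, had 3.71 CPM in LiCl only against 19.4 CPM at point 6, a step of -2.39 ± 0.16. It had declined along the whole isobole, with 96.0, 74.0, 61.0, 40.3 and 36.8 CPM at points 1 to 5, and had 34.5 CPM without drug. The last step still lay below the continued decline, with a departure of -2.22 (edgeR adjusted p = 0.027).

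The secreted acid phosphatases PHO11 and PHO12 followed the same course. PHO11 (chrI:225460-226863) had 17.8 CPM in LiCl only against 89.2 CPM at point 6, with 287, 326, 278, 191 and 139 CPM at points 1 to 5 and 191 CPM without drug (step -2.33 ± 0.07, departure -2.21, edgeR adjusted p = 0.0496). PHO12 (chrVIII:552099-553502) had 18.01 against 94.0 CPM and 203 CPM without drug (step -2.38 ± 0.07, edgeR adjusted p of departure = 0.0519). Reads that fit both genes were counted for each, so the pair is 1 measurement rather than a pair of them. PHO5, the main repressible acid phosphatase, had 30.4 CPM in LiCl only against 71.7 CPM at point 6 (-1.24 ± 0.06), with 139, 244, 244, 159 and 146 CPM at points 1 to 5 and 103 CPM without drug.

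The phosphate transporters differed in course. PHO89, a sodium-coupled phosphate transporter, had 7.10 CPM in LiCl only against 28.1 CPM at point 6 (-1.98 ± 0.12), after 235, 246, 223, 215 and 72.3 CPM at points 1 to 5, so that its fall began at point 5. PHO84, the high-affinity proton-coupled transporter, stayed between 572 and 834 CPM from point 1 to point 6 and had 268 CPM in LiCl only against 628 CPM at point 6 (-1.23 ± 0.02). That is close to its 286 CPM without drug. VTC3, a subunit of the vacuolar polyphosphate polymerase, had 188 against 386 CPM (-1.04 ± 0.03), with 353 to 424 CPM at points 1 to 5 and 285 CPM without drug. PHO84 and VTC3 therefore changed at the last step, whereas SPL2, PHO11, PHO5 and PHO89 had been falling before it. The regulators of the pathway had small steps: -0.03 for the factor PHO4, 0.17 for the cyclin PHO80 and -0.26 for the kinase PHO85. Of the 27 genes, the 16 with a CACGTG within 500 bases upstream included all 7 that fell and had a median step of -0.95, and the 11 without had a median of -0.10 and 0 that fell.

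**Figure D3:**
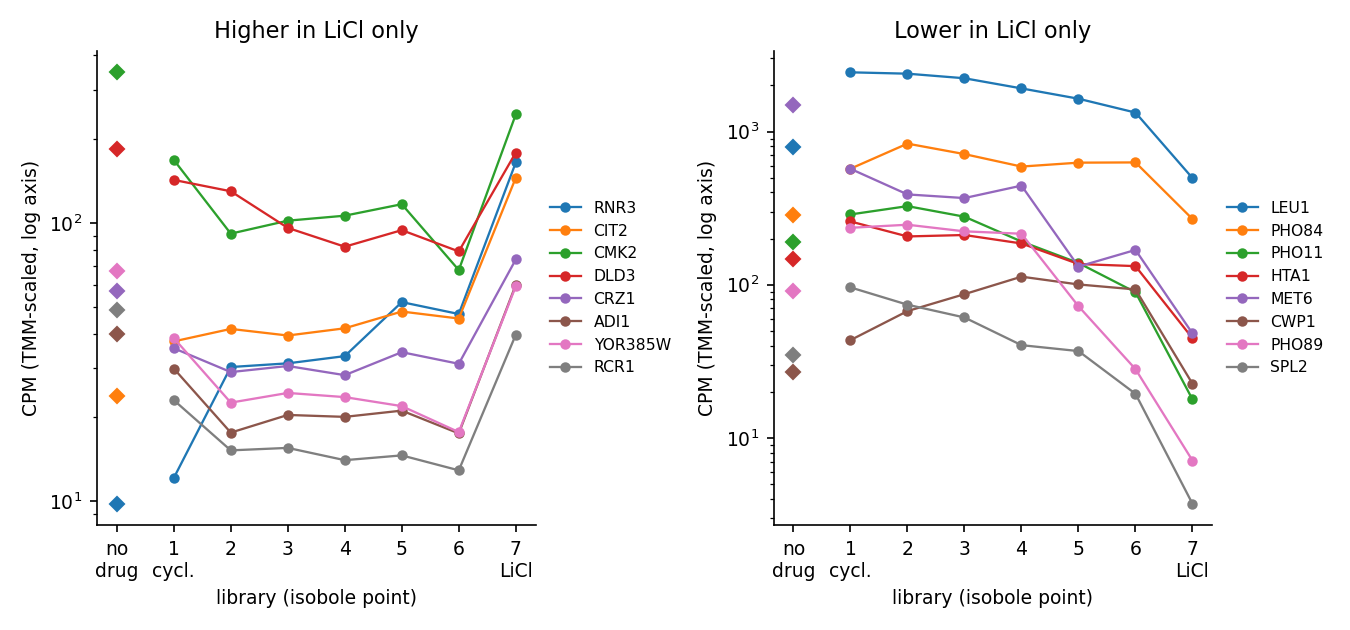
CDS level (CPM, log scale) of 8 genes higher in LiCl only (left panel) and 8 lower (right panel) in each library, from no drug (diamonds, left of the lines) through points 1 to 6 to LiCl only, 1 library per value. CIT2 and CRZ1 are flat up to point 6 and higher in LiCl only, CMK2 and RCR1 have their lowest isobole value at point 6, and SPL2, PHO11 and PHO89 decline before the last step while PHO84 does not.

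Amino acid and cell wall genes that fell included 2 that departed from the line. LEU1 (chrVII:476313-478652), the isopropylmalate isomerase of leucine synthesis, had 497 CPM in LiCl only against 1329.6 CPM at point 6, below its 795 CPM without drug, with a step of -1.42 ± 0.02. It had declined from point 1 on, through 2436, 2387, 2228, 1913 and 1638 CPM, and its departure was -1.34 (edgeR adjusted p = 0.034). Of 52 Gcn4-controlled amino acid genes, 0 rose and 2 fell, LEU1 and ARO9, with a median step of -0.16. Of the 52, 21 (40.4%) were below all 7 other libraries, against 23.1% of all genes. MET6, the methionine synthase, had 48.0 CPM in LiCl only against 169 CPM at point 6 (-1.81 ± 0.05), and 1491 CPM without drug. It was the only one of 35 sulfate assimilation and methionine genes that fell, 0 rose, and the median of that list was -0.05.

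CWP1, a mannoprotein of the cell wall, had its highest level inside the gradient. It had 22.5 CPM in LiCl only against 93.1 CPM at point 6, after 43.4, 67.2, 86.7, 113 and 100 CPM at points 1 to 5. Without drug it had 26.8 CPM, so LiCl only was again near the level without drug. The step was -2.05 ± 0.07 and the departure -2.61 (edgeR adjusted p = 0.034).

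All 8 core histone genes were below all 7 other libraries in LiCl only, against 23.1% of all genes. Their median step was -0.76, although HTA1 was the only one past the 2-fold limit. HTA1 (chrIV:915530-915928), which encodes histone H2A, had 44.7 CPM in LiCl only against 132 CPM at point 6, with 259, 206, 211, 186 and 136 CPM at points 1 to 5 and 147 CPM without drug (step -1.56 ± 0.05, departure -1.35, edgeR adjusted p = 0.034). The other 7 had steps of -0.48 to -0.98. The histone transcripts of yeast are made mainly in S phase and largely lack long poly(A) tails, and the RNA here was ribodepleted rather than selected for poly(A). Of 12 mitotic cyclin and G2/M genes, all had a negative step with a median of -0.51, but 0 fell and 0 were below all 7 other libraries. Of 15 G1 cyclin and G1/S genes, 0 rose or fell and the median step was -0.08.

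Several hexose transporter and glycogen genes fell. HXT2, a high-affinity hexose transporter, had 44.4 CPM in LiCl only against 117 CPM at point 6 (-1.40 ± 0.05), with 141 to 505 CPM at points 1 to 5 and 166 CPM without drug. HXT7 had 176 against 393 CPM (-1.16 ± 0.03), and the values of its near-identical copy HXT6 (168 against 371 CPM) rest largely on the same reads. HXT4 had 75.9 against 164 CPM (-1.11 ± 0.04). These 4 were the ones that fell of 18 hexose transporters, 0 rose, and the median of the list was -0.02. Of the 18, 6 (33.3%) were below all 7 other libraries, against 23.1% of all genes. HXK1, the hexokinase used when glucose runs low, had 102 against 256 CPM (-1.33 ± 0.03), with 301 to 1048 CPM at points 1 to 5 and 707 CPM without drug. Of 19 trehalose, glycogen and phosphoglucomutase genes, the glycogen phosphorylase GPH1 (88.7 against 202 CPM) and the glycogen synthase GSY1 (59.0 against 134 CPM) fell, each with a step of -1.18, and 0 rose. Of the 19, 17 (89.5%) were below all 7 other libraries, against 23.1% of all genes, and the median was -0.51.

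The general stress genes RTC3, HSP12 and DDR2 were the 3 that fell on the osmotic stress list. RTC3 had 32.1 CPM in LiCl only against 97.2 CPM at point 6 (-1.60 ± 0.06), the lowest of all libraries. HSP12, a membrane-associated small heat shock protein, had 247 against 567 CPM (-1.20 ± 0.02), after 520 to 1139 CPM at points 1 to 5, and remained above its 40.1 CPM without drug. HSP12 was thus lowest of the isobole in LiCl only without reaching the level of the culture without drug.

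**Figure D4:**
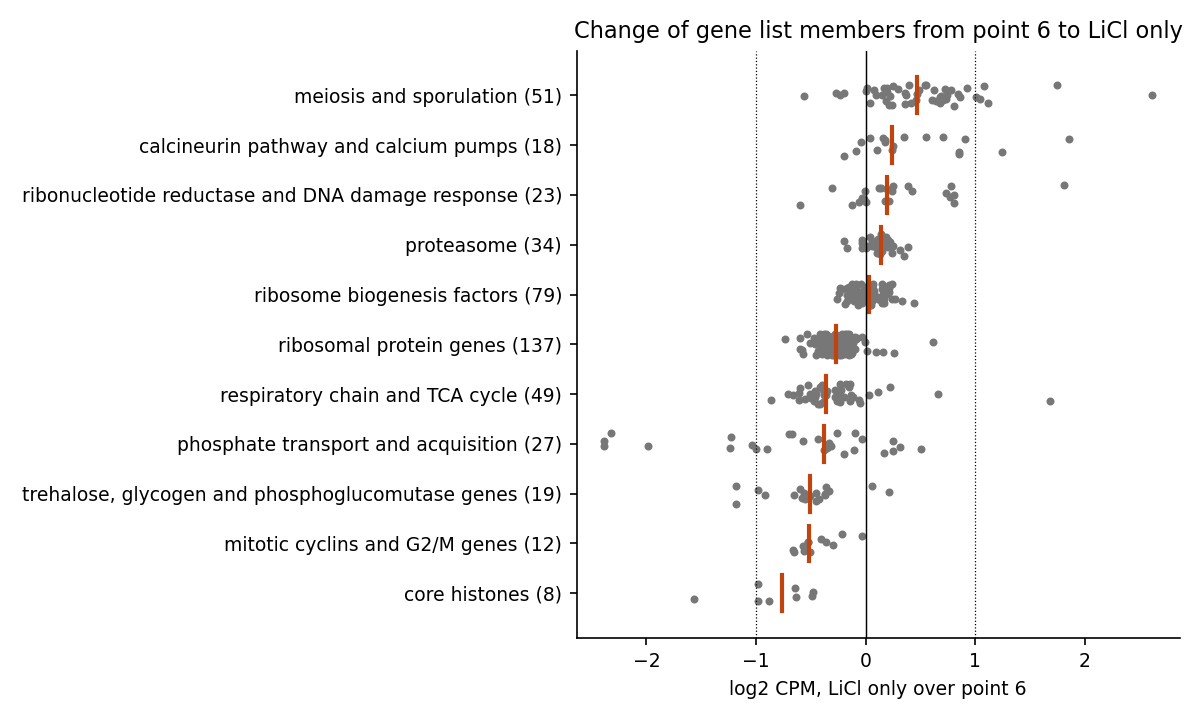
Step from point 6 to LiCl only (log2) of each member of 11 gene lists, 1 dot per gene, with the median of each list as a red bar and dotted lines at 1 and -1, the 2-fold limits. The medians run from 0.46 for meiosis and sporulation to -0.76 for the core histones.

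Large groups shifted by small amounts, against a median of -0.000925 over all 6511 genes. The group with the most counts as a whole had a median step of -0.12, and its part in these lists was not tested. Of 137 RP genes, 132 had a negative step, with a median of -0.27 over the list, and 0 passed the 2-fold limit in either direction. Of the 137, 130 (94.9%) were below all 7 other libraries, against 23.1% of all genes. RPL8A had the largest negative step among the RP genes, with 134 CPM in LiCl only against 222 CPM at point 6 (-0.73 ± 0.03). RPS22B, which encodes a protein of the small subunit, had the largest positive one, with 38.6 against 25.3 CPM (0.61 ± 0.08) and 125 CPM without drug. Its level had been 231, 147, 132, 91.7 and 57.9 CPM at points 1 to 5, so that LiCl only was higher than the lowest point of the isobole and below the rest. The 79 ribosome biogenesis factors did not follow the RP genes: their median step was 0.03 and 0 rose or fell. Of the 79, 36 (45.6%) were above all 7 other libraries, against 23.5% of all genes, and 0 were below, against 23.1%. Of 34 proteasome genes 29 had a positive step, with a median of 0.14 and 0 that rose or fell, and for 81 spliceosome components the median was 0.06, also with 0.

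Among the genes that rose, 4 lie in the ribosomal DNA region of chromosome XII (chrXII:451786-489469, with 1000 bases on each side), and RRT15 (chrXII:490406-490594) lies just past it. YLR154W-A had 1385 CPM in LiCl only against 449 CPM at point 6, but its level at points 1 to 5 jumped between 123 and 1300 CPM. TAR1 had 2785 against 917 CPM and ran from 303 to 2759.6 CPM at points 1 to 5. RRT15 had 111 against 37.4 CPM (1.57) and ran from 13.3 to 119 CPM at points 1 to 5. None of the 3 courses was ordered along the gradient. Of the 22 genes of the region 4 rose and 0 fell, against 1.35% and 0.691% of all genes. Without the region the counts over all genes were 84 and 45, and without RRT15 as well, a choice made after seeing the data, they were 83 and 45.

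Intron retention, the read density of an intron over that of the CDS of its gene, was higher in LiCl only than at point 6 for most introns. Of 255 introns measured (102 in RP genes, 153 in others), 33 (12.9%) were at least 2-fold higher with a counting interval that left out no change, 18 of them in RP genes, and 1 (0.392%) was lower. The LiCl only library had the highest retention of all 8 for 190 introns (74.5%) and the lowest for 5 (1.96%). Among RP introns, 100 of 102 had their highest retention in LiCl only. The median step was 0.78 for RP introns (1.71-fold) and 0.37 for the others (1.30-fold), and 100 and 118 of them were positive.

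Median RP retention had climbed before the last step. Median RP retention was 0.615%, 1.096%, 0.950%, 1.26%, 1.75%, 3.11% and 5.46% at points 1 to 7, against 0.713% without drug. Median retention of the other introns was 18.4%, 17.97%, 16.2%, 20.4%, 24.8%, 27.6% and 38.3%, against 17.4% without drug. The medians of the last 2 steps were 0.93 and then 0.78 for RP introns, and 0.14 and then 0.37 for the others. Calls of at least 2-fold higher retention numbered 42 RP and 2 other introns from point 5 to 6, and 18 RP and 15 other introns from point 6 to 7. The LiCl only library was the deepest, so its intervals are narrower for lightly covered introns. With at least 20 intron counts in both libraries, 22 introns were called higher at the last step. The 2 steps share the point 6 library, so these values are given side by side and were not tested against each other. The fitted departure of LiCl only retention from the line through points 1 to 6 was mostly positive. Its median on the log2 scale was 0.70 for RP introns and 0.32 for the others. By the departure test on the intron and CDS counts, 0 of the 255 introns (0.00%) left the line through points 1 to 6 at an adjusted p under 0.05 in edgeR, and 0 in DESeq2, with 29 higher and 2 lower at an unadjusted p under 0.05. With point 6 left out, 7 introns were called higher by edgeR.

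**Figure D5:**
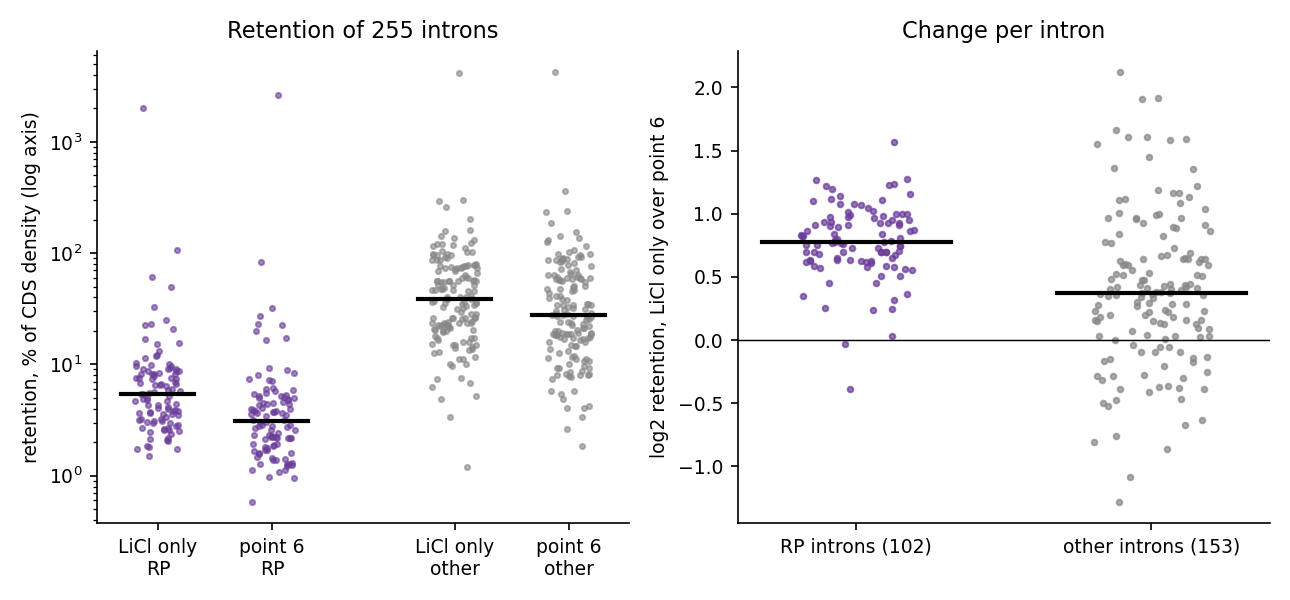
Left, retention (intron density over CDS density, in percent, log scale) in LiCl only beside point 6 for 102 RP introns and 153 other introns, 1 dot per intron. Right, the log2 change of each intron at the last step, with bars at the medians of 0.78 for RP and 0.37 for other introns.

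Retention is a ratio, and for RP genes both its intron level and its CDS level moved. The scaled intron level alone had a median step of 0.50 and was positive for 100 of the 102 RP introns, while the CDS level of the host genes had a median of -0.28 and was positive for 2. For the other introns the intron level alone had a median of 0.35, and the hosts had a median of -0.04, with 68 of 153 positive. Among those, retention had a median step of 0.44 where the host CDS step was negative (85 introns) and 0.28 where it was positive (68 introns). The 24 introns of 5′ untranslated regions had a median step of 0.62, and all 24 were positive. Short introns of the other genes, under 200 bases, had a median of 0.41 (108 introns) and longer ones 0.23 (38 introns), and the usual 5′ splice site GTATGT gave 0.75 in RP introns against 0.92 with any other (76 and 24 introns).

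The introns with the steepest rise were mostly outside RP genes and lightly covered. The intron of YBR062C had 31 intron and 366 CDS counts in LiCl only against 2 and 126 at point 6 (2.12 ± 0.96). That of RPO26, a subunit shared by the nuclear RNA polymerases, had 20 and 986 against 3 and 633 (1.91 ± 0.84). BOS1, a SNARE of traffic to the Golgi, had 28 and 656 against 4 and 327 (1.66 ± 0.74). For these the counting error alone is a large part of the step.

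Better covered were the introns of SEC27, a coatomer subunit, and of RPS4B, a small-subunit protein. SEC27 had 14.4% retention in LiCl only against 4.89% at point 6 (1.56 ± 0.40, 68 against 16 intron counts), with 3.18% to 6.17% at points 1 to 5 and 3.13% without drug. RPS4B had 1.74% against 0.584% (1.57 ± 0.27, 161 against 34 intron counts), with 0.173% to 0.593% at points 1 to 5 and 0.194% without drug. Both were flat from point 5 to 6, with steps of -0.16 and -0.02, and higher in LiCl only than in any other library. RPS23B had 4.67% against 1.93% (1.27 ± 0.13) and RPL39 had 2.70% against 1.12% (1.26 ± 0.13). The only intron that fell past the limit was that of UBC12, a conjugating enzyme for the ubiquitin-like protein Rub1, on 12 intron counts against 15 (-1.28 ± 0.58).

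RPS9A, its paralog RPS9B and RPS22B took 3 different courses at the last step. The RPS9A intron (chrXVI:404957-405457) had 60.7% retention in LiCl only against 32.3% at point 6 (0.91 ± 0.11), with 4.81%, 8.74%, 8.74%, 9.63% and 17.5% at points 1 to 5 and 6.72% without drug. The intron of its paralog RPS9B had 11.4% against 8.32% (0.46 ± 0.08), after a step of 1.17 from point 5 to 6. The 5′ untranslated region intron of RPS22B (chrXII:855878-856434) had 23.0% against 22.4% (0.03 ± 0.17), with 1.36%, 3.46%, 2.88%, 4.09% and 7.04% at points 1 to 5 and 2.31% without drug. The preceding step, from point 5 to 6, was 1.67 ± 0.22, and at the last step its intron level and CDS level had steps of 0.65 and 0.61. The coding intron of RPS22B, which holds the small nucleolar RNA gene SNR44, had a step of -0.39 ± 0.09. The 8 introns that hold such RNA genes had a median step of -0.03, and their reads include the mature small RNA. ASC1, whose intron holds SNR24, had -0.47 ± 0.04.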

How the data were processed

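Read counts per feature were made by the authors with featureCounts 1.6.2, as the headers record, over CDS, introns and 5′ untranslated region introns. Alignment was by TopHat to build R64 per the submitters' processing notes, with the version not given in the sources used here. The deposited values are raw counts without normalisation. Reads matching several places or features were counted at each, and no strand setting was given, so paralogs, overlapping genes and antisense genes are uncertain.

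The CDS counts held 6697 features, of which 6014 were in the RefSeq annotation of R64. The 28 mitochondrial ones had 0 counts and were left out. Each of the 8 columns was matched to 1 sample by its label. Genes with at least 20 counts in 1 library were kept, scaled by TMM, and compared with a pseudocount of 0.5. Introns needed a mean of 5 intron and 20 CDS counts. Intervals were 95%, from the counts. The departure test (edgeR 4.0.16, R 4.3.3, DESeq2 1.42.0 as alternative) was tested on simulated data, as were the step calls. Python 3.11.15, numpy 2.4.6, pandas 2.3.3 and matplotlib 3.10.9 did the rest.

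The comparison, the gene lists and the motifs were chosen with earlier results of these data known, so lists are described by counts and medians, without a test. Named genes were the 10 largest rises and 10 largest falls among called genes with at least 100 counts in the higher library and LiCl only outside the range of the other 7, the 5 smallest departure p in each direction, and up to 4 members of each list with the largest steps. Named introns were the 10 largest rises and 5 largest falls with at least 20 intron counts in the higher library, and the introns of RPS22B, RPS9A and RPS9B. Other genes named, such as ENA1, GPD1, RNR1 and the phosphate regulators, were chosen after their values were seen. Drug concentrations were not used. Alternatives tried were other scalings, count filters, pseudocounts and fold limits, another test and curve, and leaving out each point. The result for 1 motif is not reported here.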

Additional observations from a re-analysis of the deposited data

Results flagged for a closer look

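Introns of RNA genes were kept out of the comparisons, and they carried signal in every library. The introns of 60 tRNA-gene features summed to 2974 CPM in LiCl only against 2863 CPM at point 6 and 2949 CPM without drug. They were highest in cycloheximide only, at 3050 CPM, and lowest at point 3, at 1194 CPM. The intron of the U3 RNA gene snR17a had 85.5 CPM in LiCl only against 79.1 CPM at point 6 and 34.7 CPM without drug. That of the second U3 gene, snR17b, had 14.7 CPM in LiCl only against 16.6 CPM at point 6 and 10.3 CPM without drug. It was highest in cycloheximide only, at 19.7 CPM. These were looked at because the values in LiCl only exceed those without drug in data outside the main measurement. The excess of the tRNA-gene introns over no drug is small. Neither this excess nor the larger one of snR17b is particular to LiCl only, since both were higher still in cycloheximide only. Each value is 1 library, and the cause was not tested.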

How the results depend on the processing

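Of 100 values recomputed under another choice, 75 stayed near the main value, 25 moved further and 0 reversed. Most of these values are counts, which cannot change sign, so only the medians could have reversed. The cause was not tested where none is given. Values counted as near could still shift. Introns at least 2-fold higher numbered 33 in the main setting and 22 with at least 20 intron counts in both libraries. Departures higher numbered 6 in the main setting and 9 with total-count scaling. Requiring at least 20 counts in both libraries left 56 genes higher and 7 at least 2-fold above all others, and total-count scaling gave 19 at least 2-fold above all others. A pseudocount of 5 gave 53 higher genes. The 1.5-fold limit gave 309 higher and 199 lower, by its construction, and leaving out overlapping CDS, with fewer genes tested, gave 29 lower. Departure calls moved most: DESeq2 gave 25 higher and 38 lower, the quadratic curve 0 and 0, and leaving out points 1 to 6 in turn 4, 7, 0, 4, 1 and 2 higher and 4, 3, 0, 3, 1 and 3 lower. Introns departing higher numbered 7 without point 6 and 0 without any other point. Introns called lower numbered 2 with no filter and 0 with at least 20 intron counts in both libraries, which also gave other introns a median of 0.22. With the intron level alone, the RP median was 0.50 and 10 introns were higher. Chosen after seeing the data, the counts without genes that reach 20 only in LiCl only were 77 and 45. No paired analysis was possible because each condition is 1 library. Weak genes and lightly covered introns are limited by depth, and the spread between cultures is unknown.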
